A study of Mus musculus with 4 samples.

Results

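The antigen receptor loci of the mouse were examined in ATAC-seq peak lists of transferred CD4 T cells with and without the DNA-binding protein TOX. In ATAC-seq a transposase inserts sequencing adapters into accessible DNA, so a peak marks open chromatin. Peaks of the 4 libraries that shared at least 1 bp were merged, which gave 97394 regions. A region was a member if it overlapped one of 6 loci on GRCm38, a choice by position that used no measured value. The immunoglobulin loci were Igh (chromosome 12, 113256204 to 116009954), Igk (chromosome 6, 67555636 to 70726754) and Igl (chromosome 16, 19061752 to 19260844). The T cell receptor loci were Tra/Trd (chromosome 14, 52427967 to 54224198), Trb (chromosome 6, 40891296 to 41558371) and Trg (chromosome 13, 19178042 to 19352343). These loci held 301 regions, of which 155 were immunoglobulin (77 in Igh, 59 in Igk, 19 in Igl) and 146 T cell receptor (93 in Tra/Trd, 45 in Trb, 8 in Trg).

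The KO libraries, KO-1 and KO-2, came from TOX KO cells sorted as CD4+ and Ly5.1+ but Ly5.2-, with low PD1, LAG3 and CD39. The WT libraries, WT-1 and WT-2, came from TOX WT cells that were positive for CD4, Ly5.1 and Ly5.2 and high in PD1, LAG3 and CD39. All donor cells carried the TCRSMARTA transgene, a rearranged receptor specific for the peptide GP61, and were naive when they entered mice that bore the GP61-expressing melanoma B16-GP61 and had received cytoxan, a drug that depletes lymphocytes. On day 11 the cells were recovered from lymph nodes draining the tumor and frozen before transposition. Genotype, sort gate and congenic marker changed together and cannot be told apart. The labels give neither how Tox was deleted nor whether the 2 libraries of a genotype came from separate animals, so the spread between them may be technical. With 2 libraries against 2, the smallest exact two-sided permutation p is 0.333, so no difference below could pass 0.05.

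An antigen receptor gene is assembled during lymphocyte development, when the RAG recombinase joins a variable (V) segment to a joining (J) segment, in some chains with a diversity (D) segment between them, upstream of a constant (C) segment. Igh encodes the antibody heavy chain and Igk and Igl the light chains, which B cells express. Tra and Trb encode the chains of the receptor of CD4 T cells, while Trd, which lies inside Tra, and Trg serve gamma delta T cells. Enhancers near the constant segments act over long distances on promoters in front of V, D and J segments, and their accessibility is known to follow the lineage. The rearranged SMARTA receptor is known to use Trbv13-1 in its beta chain and a segment of the Trav14 family in its alpha chain. Reads from transgene copies of these segments, and of any J, constant or flanking sequence they carry, can align to the native ones. Neither that sequence nor the copy number in KO and WT donors is given in the sources used.

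The promoters that could be set beside a peak are printed below. Of the 666 V, D, J and C segments in the loci none had an entry in the RefSeq promoter table (GRCm38.p6), against 29 other genes of the loci and 16 of the partner and recombination genes treated below. The windows run from 250 bases before to 50 after a gene's start. Gm30214, a long noncoding RNA gene among the Tra V segments, had its whole window inside a region with a peak in every library (chr14:53039417-53039716, minus strand). Gm30948, a long noncoding RNA gene among the Igh V segments, lay at a region with a peak in both KO libraries and neither WT library (chr12:115262401-115262700, plus strand). Cd79a, which encodes a signalling chain of the B cell receptor, lay at a region with the reverse pattern (chr7:24897247-24897546, plus strand). Capitals mark the E-box CANNTG, the RUNX core TGTGGT and the recombination heptamer CACAGTG, read on both strands.
Gm30214: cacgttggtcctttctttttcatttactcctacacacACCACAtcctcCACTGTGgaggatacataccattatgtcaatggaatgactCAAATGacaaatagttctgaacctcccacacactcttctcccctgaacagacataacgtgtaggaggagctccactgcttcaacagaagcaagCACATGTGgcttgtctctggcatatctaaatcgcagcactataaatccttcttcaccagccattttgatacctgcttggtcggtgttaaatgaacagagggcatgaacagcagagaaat
Gm30948: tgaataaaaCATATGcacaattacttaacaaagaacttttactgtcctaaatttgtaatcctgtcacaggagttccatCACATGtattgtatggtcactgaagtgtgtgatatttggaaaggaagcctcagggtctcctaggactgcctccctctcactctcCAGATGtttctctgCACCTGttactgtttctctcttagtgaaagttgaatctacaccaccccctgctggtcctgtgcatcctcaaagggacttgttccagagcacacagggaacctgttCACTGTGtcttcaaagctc
Cd79a: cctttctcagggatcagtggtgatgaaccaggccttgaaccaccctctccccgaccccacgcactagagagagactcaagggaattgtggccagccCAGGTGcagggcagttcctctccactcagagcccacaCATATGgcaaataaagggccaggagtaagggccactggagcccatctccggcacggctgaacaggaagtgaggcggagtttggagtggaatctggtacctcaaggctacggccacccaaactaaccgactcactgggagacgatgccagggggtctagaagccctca
Gm30214 had 3 E-boxes (an overlapping pair among them), 1 RUNX core and 1 heptamer, Gm30948 had 4 E-boxes and 1 heptamer, and Cd79a had 2 E-boxes. Among all 32851 promoter windows of the same length, 72.3% held an E-box, 16.8% the RUNX core, 6.81% the heptamer and 96.0% the ETS core GGAA, which was also counted. The immunoglobulin octamer, a site of Oct factors, was in 1.74% of windows and in none of these 3 windows.

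The lists held 43078 and 61773 peaks in KO-1 and KO-2, and 56852 and 61489 in WT-1 and WT-2. A peak was present at 40.9% and 60.0% of all merged regions in the KO libraries, against 54.4% and 60.2% in the WT libraries. KO-1 therefore had the shortest list, and KO-2 alone supplied 18296 of the 47171 regions seen in 1 library. At 8 genes that mark CD4 T cells, such as Cd4, Cd3e and Lck, peaks stood at 46 and 60 of 73 regions in the KO libraries and at 46 and 54 in the WT libraries. At 11 B cell marker genes they stood at 19 and 29 of 121 regions in the KO libraries, against 92 and 105 in the WT libraries. Of these 121 regions 55 (45.5%) were WT-only, meaning that WT-1 and WT-2 had a peak there and no KO list did, and 1 (0.826%) was KO-only, the reverse pattern. Of all merged regions 8.8% were WT-only and 1.78% KO-only. The CD4 T cell list held 2 WT-only regions (2.74%) and 4 KO-only regions (5.48%). Near Ms4a1, which encodes CD20, there were 0 and 0 peak-bearing regions in the KO libraries, against 3 and 3 in the WT libraries. At 3 plasma cell genes peaks stood at 4 and 3 of 9 regions in the KO libraries, against 8 and 6 in the WT libraries, and at 4 myeloid genes at 5 and 5 of 13 in KO, against 7 and 9 in WT. At 2 gamma delta T cell genes, Sox13 and Trdc, they stood at 6 and 10 of 16 in KO, against 8 and 9 in WT. The 2 genes went opposite ways. Sox13 had 2 and 2 of 6 in KO, against 5 and 5 in WT, and held both WT-only regions of this list. Trdc, which lies inside the Tra/Trd locus, had 4 and 8 of 10 in KO, against 3 and 4 in WT. At 2 CD8 T cell genes peaks stood at 1 and 4 of 5 in KO, against 2 and 1 in WT. At 3 NK cell genes the counts were 1 and 4 of 5 in KO, against 3 and 3 in WT, and at 4 melanocyte genes 5 and 6 of 9 in KO, against 4 and 5 in WT. The plasma cell, myeloid and gamma delta lists held 2 WT-only regions each (22.2%, 15.4% and 12.5%) and the NK list 1 (20%). The myeloid list held 1 KO-only region (7.69%). The NK gene Ncr1 and the melanocyte gene Dct had no peak in any library.

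Immunoglobulin loci had fewer peaks in the KO libraries. A peak was present at 27 and 57 of the 155 regions in KO-1 and KO-2 (17.4% and 36.8%), against 67 and 103 in WT-1 and WT-2 (43.2% and 66.5%). The groups did not overlap, and the means were 27.1% ± 13.7 in KO and 54.8% ± 16.4 in WT (SD, n = 2 each), a difference of -27.7 percentage points (exact permutation p = 0.333). Of the 155 regions, 29 (18.7%) were WT-only, against 8.8% of all merged regions, and 2 (1.29%) were KO-only, against 1.78%. A further 17 regions (11.0%) had a peak in every library, against 27.6% of all regions. B cell marker genes moved in the same direction, with the values given above, and their part in this difference was not tested. In a bulk library, more cells of another type and more open chromatin per cell cannot be told apart.

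**Figure D1:**
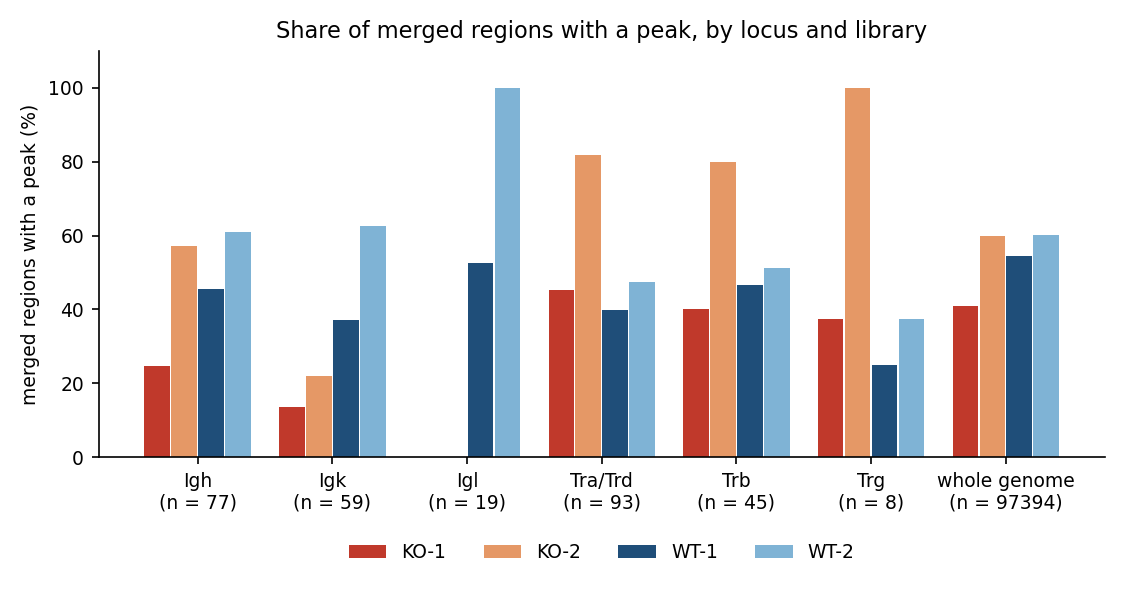
Bars give the percent of merged regions with a peak in each library, for the 6 loci and for the whole genome, with the number of regions under each name. At Igk and Igl both KO bars lie below both WT bars, and at the T cell receptor loci KO-2 stands above the other libraries.

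Igl, the lambda light chain locus, showed the clearest separation. Neither KO library had a peak at any of its 19 regions, whereas WT-1 had peaks at 10 and WT-2 at all 19, of which 9 were in no other list. Its WT-only regions thus numbered 10 (52.6%). The strongest of them, at 19178848 to 19180232, showed fold enrichments of 13.1 and 11.6 in WT-1 and WT-2, at percentiles 92.9 and 89.6 of their lists. Fold enrichment, here and below, is the authors' deposited ratio of a peak's tags to the background its caller set, within that library. The next, at 19152442 to 19153366, had 9.57 and 11.9 in WT-1 and WT-2. Both lie on the far side of the constant pseudogene Iglc4 from Iglj2, in the stretch downstream of the Iglc4 and Iglc2 pair, where an enhancer of the mouse lambda locus is known. A WT-only region at 19146223 to 19147053 on the same side had 6.27 and 6.50 in WT-1 and WT-2. At the noncoding gene Gm35545, WT-only regions at 19236563 to 19237052 and 19245861 to 19246222 had 5.22 and 5.96 in WT-1, and 5.03 and 7.93 in WT-2. Joining segments were open too, with 4.13 and 4.77 in WT-1 and WT-2 beside Iglj3 (19067027 to 19067336) and 2.90 and 6.31 in the same libraries beside Iglj2 (19199884 to 19200472). At all of these places the KO lists were empty.

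Igk, the kappa light chain locus, came next, with peaks at 8 and 13 of 59 regions in the KO libraries, against 22 and 37 in the WT libraries. Of these 59 regions 12 were WT-only (20.3%), none KO-only, and 10 of the 12 were nearest to a V segment. Within 500 bp of the 162 Igk V segments a peak lay at 0 and 0 in the KO libraries, against 7 and 12 in the WT libraries. The strongest was Igkv4-51 (69681221 to 69681750), with a fold of 7.80 and 7.49 in WT-1 and WT-2. Igkv4-58 (69500069 to 69500360) had 5.66 and 5.09 in WT-1 and WT-2. In WT-1 and WT-2 the fold was 4.43 and 5.09 at the WT-only region nearest to Igkv4-53, 3.67 and 4.24 at Igkv12-44, and 3.67 and 3.82 near Gm4873. The intron between Igkj5 and the constant segment Igkc, which holds the intronic kappa enhancer, had a WT-only region at 70725673 to 70726201 with 3.29 and 4.13 in WT-1 and WT-2. This interval of 2511 bp (70723924 to 70726434) touched 3 regions, of which 0 and 0 had a peak in the KO libraries, against 1 and 3 in the WT libraries. The 2 Igk regions with a peak in every library lay instead at and near the noncoding gene Gm46961. The one at 70709188 to 70709984 had 4.14 and 8.98 in KO-1 and KO-2, against 10.1 and 9.12 in WT-1 and WT-2.

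At Igh, the heavy chain locus, the groups overlapped, with peaks at 19 and 44 of 77 regions in the KO libraries and at 35 and 47 in the WT libraries. Of the 55 regions nearest to an Igh V segment 14 (25.5%) had a peak in every library, close to the 27.6% of all merged regions. The strongest was at Ighv1-47 (114990826 to 114991676), with a fold of 14.0 and 21.4 in KO-1 and KO-2, against 13.4 and 14.5 in WT-1 and WT-2. At Ighv1-54 (115193534 to 115194213) it was 5.89 and 12.1 in the KO libraries, against 10.8 and 8.34 in the WT libraries. Within 500 bp of the 184 Igh V segments a peak lay at 12 and 23 in the KO libraries, against 18 and 21 in the WT libraries. The 2 KO-only immunoglobulin regions were also in Igh. That near Ighv1-26 (114790854 to 114791182) had 2.83 and 4.89 in KO-1 and KO-2, and that at the Gm30948 promoter printed above (115262498 to 115262704) had 3.44 and 4.19 in the same libraries.

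The constant end of Igh differed from its V end. All 4 regions of Igh that were WT-only and nearest to a D, J or C segment were nearest to constant segments. At Igha, the constant segment of IgA (113257093 to 113257850), the fold was 5.81 and 5.23 in WT-1 and WT-2. In the same libraries it was 6.11 and 8.13 near Ighg1, an IgG segment (113320984 to 113321520), and 4.89 and 5.12 near Ighg3 (113366400 to 113366770). At Ighm, the IgM segment (113418809 to 113419718), it was 2.13 and 2.39 over a local background of 3.03 and 4.44 floors, in WT-1 and WT-2. The local background is the number of tags that the caller expected at a peak from its surroundings, and the floor is its most frequent value in a list. The WT-only region nearest to the small RNA gene LOC115488076 (113314629 to 113315219) had 4.89 and 6.22 in WT-1 and WT-2, and that at Ighv1-12 (114615744 to 114616090) had 3.97 and 3.96 there. The interval of 5783 bp between Ighm and Ighj4 (113422731 to 113428513), which holds the intronic heavy chain enhancer, had no peak in any library, and none of the 20 D and 4 J segments of Igh had a peak within 500 bp.

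Taken by segment, the gap between genotypes was wider at D, J and C segments than at V segments of the immunoglobulin loci. At the 24 regions nearest to a D, J or C segment a peak was present at 0 and 4 in the KO libraries, against 9 and 20 in the WT libraries. At the 100 regions nearest to a V segment the counts were 21 and 42 in the KO libraries, against 43 and 61 in the WT libraries. The D/J/C percent minus the V percent was -21.0 and -25.3 in the KO libraries, against -5.50 and 22.3 in the WT libraries, so the groups did not overlap (exact permutation p = 0.333). With the 20000 strongest peaks of each list they did, at -58.3 and -66.7 in the KO libraries and -66.7 and 58.3 in the WT libraries (exact permutation p = 1). At the T cell receptor loci the same difference was 4.09 and 9.03 in the KO libraries and -3.73 and 10.2 in the WT libraries, which overlap (exact permutation p = 1). At those loci peaks stood at 21 and 40 of 46 D/J/C regions in the KO libraries, against 18 and 25 in the WT libraries, and at 32 and 60 of 77 V regions in the KO libraries, against 33 and 34 in the WT libraries.

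**Figure D2:**
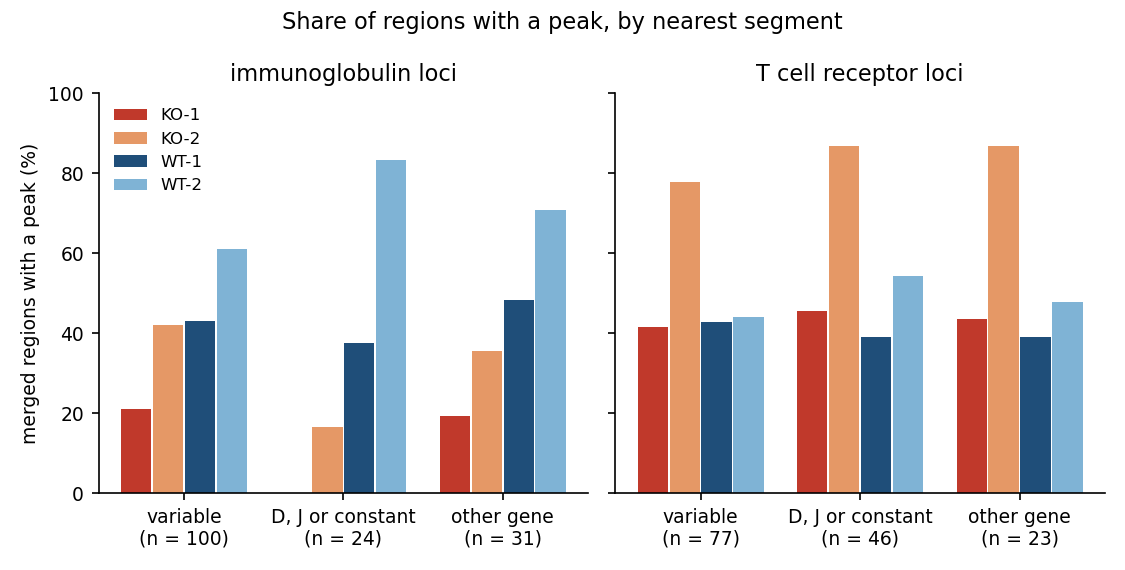
Bars give the percent of regions with a peak in each library, split by whether the nearest annotated gene was a V segment, a D, J or C segment, or another gene. At immunoglobulin D, J and C segments KO-1 has no peak and KO-2 has 16.7%, against 37.5% and 83.3% in the WT libraries.

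The same direction was seen beyond the immunoglobulin loci. Of the 34 regions within 50 kb of their ends 11 were WT-only and none KO-only, against 8.8% and 1.78% of all merged regions. On the constant side of Igk, where the 3′ kappa enhancers are known to lie, a region 8400 bp beyond the locus (70735154 to 70736141) had a fold of 12.0 and 12.5 in WT-1 and WT-2. Another at 70743732 to 70744458 had 6.67 and 10.7 in these libraries. On the constant side of Igh, which holds the 3′ regulatory region of the heavy chain, a WT-only region at 113227954 to 113228779 had 8.12 and 7.91 in WT-1 and WT-2. A neighbour at 113222066 to 113223417 had a peak in every library, with 5.23 and 6.01 in the KO libraries and 5.74 and 6.0 in the WT libraries. On the constant side of Igl, where a second lambda enhancer is known, a WT-only region at 19027054 to 19027467 had 4.43 and 4.38 in WT-1 and WT-2.

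The genes that work with the B cell receptor held regions of every class. Within 10 kb of 8 partner and surrogate chain genes lay 32 regions, of which 7 were WT-only (21.9%, against 8.8% of all merged regions), 2 KO-only (6.25%, against 1.78%) and 11 in every library (27.6% of all merged regions are). A region near more than 1 of these genes counted for each. Cd79a and Cd79b, which form the signalling pair of the receptor and also belong to the B cell markers, had 2 WT-only regions of 8 and 3 of 6. The region over the Cd79a promoter printed above had a fold of 8.61 and 8.88 in WT-1 and WT-2. Vpreb1, Vpreb2 and Igll1, which encode the surrogate light chain of pre-B cells, had no genotype-specific region, and the single region of Vpreb1 and that of Vpreb2 had a peak in every library. Pou2af1, the Oct coactivator of immunoglobulin promoters, and Vpreb3 each had 1 WT-only and 1 KO-only region, and the 1 region of Jchain, the joining chain of IgM and IgA, had a peak in KO-2, WT-1 and WT-2 but not in KO-1. Among the recombination genes, Rag1 and Rag2, which encode the recombinase, had no KO-only and no WT-only region. Dntt, which encodes the polymerase that adds bases at the joints, had 1 KO-only and 1 WT-only region of 3, and both regions of Dclre1c, the Artemis nuclease gene, had a peak in every library.

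At the T cell receptor loci the libraries differed in another way. A peak was present at 63 and 120 of the 146 regions in KO-1 and KO-2 (43.2% and 82.2%), against 60 and 70 in WT-1 and WT-2 (41.1% and 47.9%). The groups overlapped, and the means were 62.7% ± 27.6 in KO and 44.5% ± 4.84 in WT (SD, n = 2 each), a difference of 18.2 percentage points (exact permutation p = 0.667). KO-2 alone supplied 46 of the regions, and with regions merged again without it the difference was -2 percentage points. List lengths differ, and per 10000 peaks of a list the regions with a peak numbered 14.6 and 19.4 in the KO libraries, against 10.6 and 11.4 in the WT libraries, which do not overlap (exact permutation p = 0.333). KO-only regions numbered 14 (9.59%), against 1.78% of all merged regions, and WT-only regions 6 (4.11%), against 8.8%. Another 32 (21.9%) had a peak in every library. At Tra/Trd a peak stood at 42 and 76 of 93 regions in the KO libraries, against 37 and 44 in the WT libraries. At Trb the counts were 18 and 36 of 45 in the KO libraries, against 21 and 23 in the WT libraries, and at Trg 3 and 8 of 8 in the KO libraries, against 2 and 3 in the WT libraries. With regions merged from the 20000 strongest peaks of each list, the percents of T cell receptor regions with a peak did not overlap either, at 93.3% and 76.7% in the KO libraries, against 36.7% and 36.7% in the WT libraries.

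Of the KO-only regions 7 were nearest to a V segment, 5 to a D, J or C segment and 2 to another gene. Tra/Trd held 10 of the 14, and the 5 strongest had no J segment among them. The region nearest to Gm36448 (52553225 to 52553883) had a fold of 4.91 and 8.85 in KO-1 and KO-2. In the same KO libraries Trdv2-2, a delta V segment (53960870 to 53961450), had 4.42 and 6.06, and Trdv1 (53881410 to 53881647) had 3.76 and 4.93. Trav8-2 (53738040 to 53738401) had 4.28 and 4.04 in KO-1 and KO-2, and Trav21-dv12, which alpha and delta chains share (53878404 to 53879014), had 3.38 and 9.06. In the J cluster, with folds again for KO-1 and KO-2, KO-only regions stood at Traj57 (2.84 and 4.53), Traj39 (2.28 and 2.71) and Traj1 (1.95 and 1.88). The percentiles of fold in these lists were 20.5 and 53.6 at Traj57, but 1.28 and 3.23 at Traj39. Trb had 3, with folds in the same order of libraries, of which 2 were nearest to Trbv21 (2.90 and 3.08 at 41196506 to 41197139, 3.08 and 3.01 at 41199924 to 41200249) and 1 at Trbj1-3 (2.23 in each KO library). Trg had 1, at 19219661 to 19220170 and 3297 bp from Trgc1, with 2.78 and 5.59 in KO-1 and KO-2. That stretch lies beyond the first gamma constant segment, where an enhancer of the mouse Trg locus is known.

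The 6 WT-only regions lay in Tra/Trd and Trb, 3 in each. In Tra/Trd they lay at the olfactory receptor gene Olfr1509 (3.36 and 4.81 in WT-1 and WT-2), at Traj53 (2.45 and 2.14 there) and at Traj26 (2.63 and 2.56 there). In Trb, with folds for the same WT libraries, they were nearest to Trbv2 (2.90 and 2.69), Trbv12-1 (2.93 and 2.77) and Trbv14 (5.66 and 4.38). Their percentiles of fold within a list reached 67.0 and 61.5 in WT-1 and WT-2, and at Traj53 were as low as 3.02 and 1.07. Within 500 bp of the 35 Trb V segments a peak lay at 6 and 7 in the KO libraries, against 7 and 7 in the WT libraries, and of the 136 Tra/Trd V segments at 12 and 23 in the KO libraries, against 10 and 14 in the WT libraries.

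By fold, the median shared T cell receptor region ranked higher in the KO lists, except under the strictest threshold tried. Over the 32 regions with a peak in every library, the median percentile of fold was 59.0 and 63.3 in KO-1 and KO-2, against 46.7 and 48.6 in WT-1 and WT-2, a difference of 13.6 (exact permutation p = 0.333). With peaks of a −log10 q of at least 10 the medians overlapped, at 33.4 and 48.8 in the KO libraries and 40.5 and 33.8 in the WT libraries, a difference of 3.96 (exact permutation p = 1). Over the D, J and C regions with a peak in each library, shared or not, the median percentile was 4.88 and 13.8 in the KO libraries, against 18.6 and 20.1 in the WT libraries. In 16 of the 32 regions both KO percentiles lay above both WT percentiles, against 16.5% of all shared regions, and in 0 below both, against 25.9%. At the 17 shared immunoglobulin regions these counts were 5 and 2, and the medians overlapped, at 61.3 and 76.5 in the KO libraries and 65.9 and 60.0 in the WT libraries.

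The widest gap stood at Trav14d-3-dv8 (53078458 to 53079112), a member of the V family used by the SMARTA alpha chain. Its fold was 8.02 and 12.3 in KO-1 and KO-2, against 2.60 and 2.83 in WT-1 and WT-2, at percentiles of 84.0 and 88.2 in the KO lists, against 7.65 and 23.9 in the WT lists. Of the other 8 Trav14 segments in the annotation, Trav14n-3 and Trav14-1 had a peak in WT-2 only and Trav14-3 in KO-2 only. At Gm30214, whose promoter is printed above (region 53039365 to 53039923), the fold was 10.6 and 17.4 in the KO libraries, against 5.81 and 7.21 in the WT libraries. At Trav17 (53805093 to 53806643) it was 10.4 and 10.8 in the KO libraries, against 7.95 and 7.42 in the WT libraries. At Trbv23 (41215832 to 41216372) it was 7.36 and 10.5 in the KO libraries, against 4.13 and 2.83 in the WT libraries. In Trg the stronger of the 2 shared regions at the noncoding gene Gm31887 (19181959 to 19182766) had 7.71 and 9.93 in the KO libraries, against 6.27 and 8.64 in the WT libraries.

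**Figure D3:**
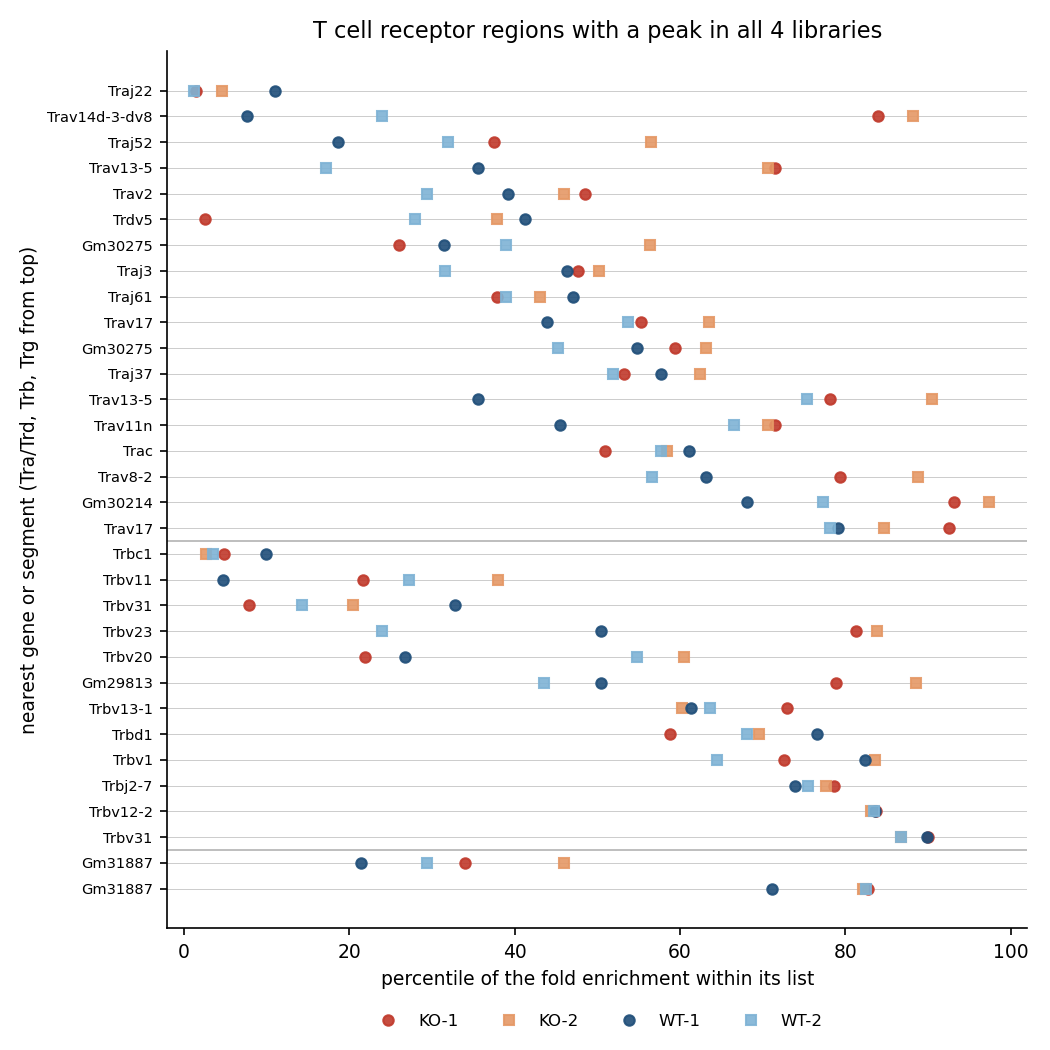
Each row is a T cell receptor region with a peak in every library, named by its nearest gene or segment, and points give the percentile of its fold enrichment in each list. Tra/Trd rows are at the top, and at Trav14d-3-dv8 the KO points are at 84.0 and 88.2 and the WT points at 7.65 and 23.9.

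At the segments nearest the constant genes, peaks stood on a raised local background, and more so in the KO libraries. The deposited fold and p of every peak together fix the whole number of tags at its summit and the caller's local background, as set out under the processing of the data. Over all 26867 shared regions the median background was 1.43 and 1.92 floors in KO-1 and KO-2, against 1.56 and 1.65 in WT-1 and WT-2. At the 9 shared D, J and C regions of the T cell receptor loci it was 3.69 and 6.58 floors in the KO libraries, against 2.57 and 2.96 in the WT libraries (exact permutation p = 0.333). Both KO values lay above both WT values at all 9, and at 22 of the 32 shared T cell receptor regions, against 15.3% of all shared regions. They lay below at 0 of the 32, against 11.5%. Summit tags in units of the floor gave the same picture, with both KO values above both WT values at 26 of the 32, against 11.6% of all shared regions, and below at 0, against 8.37%. The ratio of the KO mean to the WT mean exceeded 1.78, the 99th percentile of all shared regions, at 14 of the 32 T cell receptor regions, against 1.0% of all, and at 0 of the 17 shared immunoglobulin regions. Neighbouring regions can share their surroundings and had close backgrounds, as those at Trav17 below, so these counts are not of independent places.

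At Tra the background stepped up toward the constant segment. In the stretch of J segments the shared regions at Traj52, Traj37 and Traj22 had 3.01 to 3.12 floors in KO-1 and 3.86 to 4.64 in KO-2, against 1.52 to 1.79 in WT-1 and 1.96 to 2.15 in WT-2. At Traj61, close to the promoter that opens the J cluster in thymocytes (54152706 to 54153327), it was 2.00 and 2.77 in the KO libraries, against 1.20 and 1.38 in the WT libraries. At Traj3 (54216819 to 54217484), it reached 9.61 and 15.7 in the KO libraries, against 3.53 and 3.75 in the WT libraries. Inside Trac, the alpha constant segment (54222083 to 54222809), it reached 22.6 and 41.8 in the KO libraries, against 10.6 and 11.6 in the WT libraries. The fold at Trac overlapped, with 3.75 and 5.04 in the KO libraries and 5.0 and 4.49 in the WT libraries, a fold being a ratio to this background. The summit itself held 437 and 699 tags in the KO libraries, against 298 and 321 in the WT libraries, or 85.5 and 212 floors in KO, against 53.8 and 52.8 in WT. Beyond Trac, on the side where the alpha enhancer is known to lie, a region at 54227059 to 54228611 had a peak in every library, with a fold of 6.14 and 7.19 in the KO libraries, against 7.03 and 6.82 in the WT libraries.

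**Figure D4:**
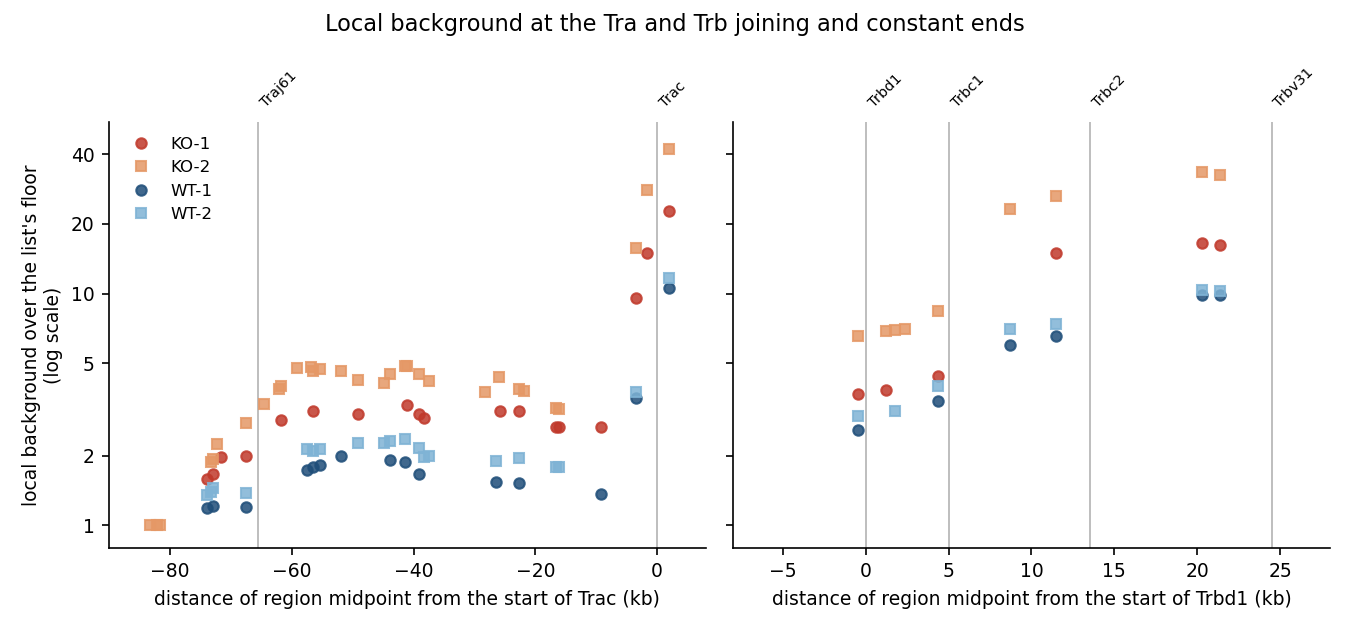
Points give the local background in units of the list's floor (log scale) at each region with a peak, against the distance of its midpoint from the start of Trac or of Trbd1. KO points lie above WT points at every shared region drawn, and values lie between 3.53 and 15.7 floors at Traj3 and between 10.6 and 41.8 inside Trac.

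At Trb the background was high at the V segment of the transgene and at the J2 end. At Trbv13-1 (41115838 to 41116855) it was 14.8 and 28.1 floors in KO-1 and KO-2, against 5.84 and 6.73 in WT-1 and WT-2. At the neighbouring region nearest to Trbv12-2 (41117894 to 41118921) it was 14.4 and 27.2 in the KO libraries, against 5.51 and 6.32 in the WT libraries. The KO over WT ratio of means was 3.41 and 3.51 at these regions. At the other shared regions nearest to Trb V segments, leaving out Trbv31, no value exceeded 1.91 floors, which was that of Trbv1 in KO-2. At the D segment Trbd1 (41532182 to 41533272) it was 3.69 and 6.58 in the KO libraries, against 2.57 and 2.96 in the WT libraries. Near Trbc1 (41537388 to 41537683) it was 4.42 and 8.44 in KO, against 3.43 and 3.99 in WT, and near Trbj2-7 (41543746 to 41545662) 15.0 and 26.3 in KO, against 6.56 and 7.42 in WT. The WT libraries also had more peaks at B cell marker genes, as given above. The part of these peaks, or of reads from transgene copies, in the differences at Trb and at Trac was not tested.

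The interval between Trbc2 and Trbv31, where the Trb enhancer is known to lie, held the peak with the highest −log10 p of both KO lists. This region (41553780 to 41555316) had 807 and 1258 tags at its summit in KO-1 and KO-2, against 651 and 648 in WT-1 and WT-2, over a background of 16.1 and 32.6 floors in KO, against 9.82 and 10.3 in WT. By −log10 p it ranked 1 in both KO lists, and 44 and 250 in the WT lists, which differ in length. The region nearest to Trbv12-2 ranked 2 in both KO lists, against 3193 and 3568 in the WT lists. By fold the enhancer interval did not separate the groups, with 9.68 and 11.6 in the KO libraries and 11.8 and 10.2 in the WT libraries. Its percentiles of fold were 90.0 and 86.7 in the KO lists, and 89.9 and 86.8 in the WT lists.

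Among the shared regions nearest to Tra and Trd V segments, the 2 at Trav17 had the highest background in the KO libraries. There it was 2.98 and 2.96 floors in KO-1 and 4.47 and 4.51 in KO-2, against 1.22 and 1.20 in WT-1 and 1.66 and 1.68 in WT-2, ratios of 2.59 for both. At Trav14d-3-dv8, of the family named for the SMARTA alpha chain, it was near the floor, with 1.00 and 1.33 in the KO libraries and 1.00 and 1.00 in the WT libraries. At Trg no shared region had a background above 1.35 floors in any library.

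The genes of the invariant chains that signal for the T cell receptor had peaks in every library. Within 10 kb of Cd3e, Cd3d, Cd3g, Cd247 and Ptcra lay 41 regions, with peaks at 29 and 35 in the KO libraries, against 32 and 31 in the WT libraries. A region near more than 1 of these genes counted for each, so the 41 include repeats. Of these regions 21 had a peak in every library, as do 27.6% of all merged regions, 4 were KO-only (9.76%, against 1.78%) and 1 was WT-only (2.44%, against 8.8%). Cd3e, Cd3d, Cd3g and Cd247, which encode the CD3 and zeta chains, had 1 KO-only region each, and Cd3e also had the WT-only region. The KO-only region counted at Cd3d and the one counted at Cd3g are the same. This KO-only region (44981722 to 44981896) met only part of the Cd3d promoter window (44981536 to 44981835). Its fold was 3.31 and 2.50 in KO-1 and KO-2, at percentiles 42.1 and 1.83 of their lists. The other 2 regions counted at Cd3d had a peak in every library. At the Cd3g promoter the fold was 5.42 and 10.0 in the KO libraries, against 5.01 and 5.06 in the WT libraries, and at the Cd3e promoter 7.01 and 10.2 in KO, against 4.95 and 7.76 in WT. Both regions of Ptcra, which encodes the pre-T cell receptor alpha chain of thymocytes, had a peak in every library. At the flanks of the T cell receptor loci 13 of 20 regions had a peak in every library, against 27.6% of all merged regions. Of these 20 regions 1 was WT-only and none KO-only, against 8.8% and 1.78% of all merged regions.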

How the data were processed

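Peak lists of 4 ATAC-seq libraries were used, 2 KO and 2 WT. The submitters' processing notes name the tools BWA, SAMtools, Picard, deepTools and MACS2, a peak caller, and the assembly GRCm38 (also called mm10). Their settings, read filters and shift of reads for the transposase are not given in the sources used. Per the labels' protocols, reads were paired, of 50 bp. Each deposited list has 10 columns: the deposited score (not used), the deposited fold enrichment, a ratio to the caller's background, and the deposited −log10 p and −log10 q, every one of them above 2. The running peak numbers have gaps of 1603 and 1681 in the KO lists and 1758 and 1900 in the WT lists, so an absent peak may be a removed peak. Read numbers are not given and depth is unknown, so no counting interval was set.

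Peaks sharing at least 1 bp were merged (Python 3.11, pandas 2.3.3). A region took its highest fold, ranked as a percentile within its list (mid-rank for ties), and the nearest gene or segment of the RefSeq table (GRCm38.p6), which lists no strand for segments. Positions are 1-based. Values per library were compared by exact two-sided permutation. Every fold and p fitted (t + 1)/(λ + 1) and a Poisson tail with whole tags t and background λ, to within 0.00174 in −log10 p in all 4 lists. The floor, the most frequent λ, was 5.11 and 3.29 tags in the KO lists and 5.54 and 6.08 in the WT lists, which would follow depth under equal settings. This step was chosen after seeing the data. On simulated data, tags and background were recovered from fold and p made with these same formulas, and known region classes were recovered. This does not test whether the caller used these formulas, and the other steps were not simulated.

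The loci, lists and tests were chosen with earlier results of these data known. Named regions were, per locus, the 2 shared regions with the highest lowest percentile, KO-only and WT-only regions (5 per class by that measure where over 8, and 5 WT-only per immunoglobulin locus), and regions near constant, joining, Trbv13-1 and Trav14 segments and partner genes. The regions named at Trbv23, in the flanks and, at Trav17, the weaker of 2 were chosen after their values were seen. Replicate numbers did not pair the libraries: deviations of same-numbered libraries correlated at 0.017 over shared regions. Alternatives were stricter or equal-length lists, other overlap and membership rules, each library left out and a replicate block.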

Additional observations from a re-analysis of the deposited data

How the results depend on the processing

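No difference could pass 0.05 with 2 libraries against 2, so stability below is of direction and count only. Immunoglobulin regions with a peak stayed fewer in KO under every alternative run, between -45.7 and -18.5 percentage points with a library left out. With a library left out the T cell receptor difference ranged from -2 (without KO-2) to 39.7 (without KO-1), and that of Trb from -12.9 to 33.3 in the same settings; with the 20000 strongest peaks the T cell receptor difference was 48.3. Igh alone turned to 25.0 with the 20000 strongest peaks of each list, and ranged from -38.1 (without KO-2) to 4.55 (without KO-1). The immunoglobulin percentile difference of 5.97 turned to -15.2 with the 20000 strongest peaks, -4.24 at a −log10 q of at least 10 and -5.81 at 5, and ranged from -1.59 (without KO-2) to 8.90 with a library left out. The T cell receptor percentile difference of 13.6 came to 3.96 at a −log10 q of at least 10, where the groups overlapped, as did those of the immunoglobulin D/J/C minus V difference with the 20000 strongest peaks. The T cell receptor difference between D/J/C and V segments (3.33) turned to -2.61 with the 20000 strongest peaks and -4.17 at a −log10 q of at least 5, and ranged from -3.90 (without WT-1) to 9.12 (without WT-2). KO-only T cell receptor regions fell in number to 8 (20000 strongest), 7 (−log10 q of at least 10) and 8 (at least 5), and leaving out a library gave 15 to 63. WT-only ones came to 0, 2 and, with a library left out, 8 to 15. WT-only immunoglobulin regions came to 4 and 11 in the first 2 of these settings and 29 to 77 with a library left out, and KO-only ones to 0 at a −log10 q of at least 10, 1 at 5, and 2 to 30. Stricter lists hold fewer peaks, and a class needs fewer libraries when 1 is left out. The local background difference at shared T cell receptor D, J and C regions (2.37 floors) ranged from 1.04 (without KO-2) to 2.71. With the replicate block the differences of means were the same (-27.7 for immunoglobulin, 18.2 for T cell receptor regions), with an exact sign-flip p of 0.5, the smallest possible, for both.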
